A study of Homo sapiens with 8 samples.

Results

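The genes described here carry glucose into the cell, turn it into pyruvate and lactate, and move lactate across the membrane. They are 10 of the 20090 protein-coding genes annotated on chromosomes 1 to 22 and X, and they were chosen by name. They are SLC2A1, HK1, HK2, PFKP, PFKFB3, PKM, LDHA, LDHB, SLC16A1 and SLC16A3. For each gene, peaks were taken within 2 kb of its canonical transcription start site (TSS), in the gene body and within 50 kb on either side, and the gene with both flanks is called the locus. Genes and TSSs came from GENCODE release 44 mapped to hg19, the build of the peak lists.

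SLC2A1 is the glucose transporter found in most cell types, and the hexokinases HK1 and HK2 trap glucose by phosphorylating it. PFKP is the platelet isoform of phosphofructokinase, and PFKFB3 makes the sugar bisphosphate that activates phosphofructokinase. PKM makes pyruvate, the lactate dehydrogenase subunits LDHA and LDHB interconvert pyruvate and lactate, and SLC16A1 and SLC16A3 are proton-coupled lactate transporters. Tumor cells often use this route at a high rate even where oxygen is present. Acetylation of lysine 27 of histone H3 (H3K27ac) marks active promoters and enhancers, and succinylation of lysine 23 of the same histone (H3K23su) uses an acyl group that comes from the mitochondrial intermediate succinyl-CoA.

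The study profiled both marks by CUT&Tag, a method that tethers a transposase to an antibody and sequences the DNA cut out around the bound antigen. HCT15 is an established human colorectal cancer line, and HCT15-FR cells are a derivative resistant to 5-fluorouracil (5-FU), a drug that blocks thymidylate synthesis. By the labels, parental HCT15-Pa cells received DMSO and HCT15-FR cells 20 μg/ml 5-FU, and the study's methods say that resistant cells were held without the drug for some days before an experiment. Each mark has 2 libraries of each line, 8 in all, and there is 1 resistant line. Drug exposure, resistance and any other property of that line cannot be told apart. The labels do not say whether the libraries came from separate cultures, so p-values measure only the spread between these libraries, which may be technical.

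Each deposited list gives the position of every peak and a score, the −log10 of the P value from the peak caller, which was used here only as a rank within its own list. A percentile of 90 would mean that 90% of the peaks of that library scored no higher. The lists give no read counts, so the depth behind a peak is unknown, and absence from a list means only that nothing passed the authors' threshold there. In HCT15-Pa libraries the lists covered 33.3 ± 0.368 Mb for H3K23su and 39.2 ± 0.515 Mb for H3K27ac (SD, n = 2). The HCT15-FR lists covered 39.7 ± 0.467 Mb and 46.5 ± 0.220 Mb (SD, n = 2). The ratio between the lines was 1.19 for either mark, a difference that touches every covered length given here. Of 10 markers of colorectal epithelium, 6 had an H3K23su and 8 an H3K27ac promoter peak in all 4 libraries, including EPCAM, CDH1 and VIL1. None lacked a peak in every library, but the others differed by line. CDX1 had promoter peaks of either mark only in the HCT15-FR libraries, as had CDH17 for H3K23su and KRT20 for H3K27ac. For H3K23su, CDX2 and KRT20 each had a peak in 1 HCT15-FR library alone. Of 9 markers of blood, vessels, fibroblasts, liver, lung and glia, 6 had no H3K23su peak and 7 no H3K27ac peak at the promoter in any library. The collagen gene COL1A1 was the exception with an H3K27ac peak in all 4.

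Overlapping or touching peaks of the same mark were joined across its 4 libraries into regions. FR-only regions had a peak in each HCT15-FR library and none in HCT15-Pa libraries, Pa-only regions were the opposite, and shared regions had one in every library. The following sequences are stretches near the 10 genes that were FR-only or Pa-only in each of the marks, where regions of H3K23su and H3K27ac overlapped. They are read from the hg19 plus strand, 5′ to 3′, and cover the bases common to both regions, up to 300 around their midpoint. Capitals mark exact matches, on either strand, to the AP-1 letters TGACTCA, the TEAD letters GGAATG, the GC box letters GGGCGG, the KLF letters CACACCC and the FOX letters TGTTTAC. The E-box letters CACGTG were searched too, as were both cores of the hypoxia response element, one being ACGTG, which the E-box contains, and the other GCGTG.
The first is FR-only in both marks and lies in an intron of PFKP, 35.7 kb downstream of its TSS, at chr10:3145246-3145545.
PFKP intron: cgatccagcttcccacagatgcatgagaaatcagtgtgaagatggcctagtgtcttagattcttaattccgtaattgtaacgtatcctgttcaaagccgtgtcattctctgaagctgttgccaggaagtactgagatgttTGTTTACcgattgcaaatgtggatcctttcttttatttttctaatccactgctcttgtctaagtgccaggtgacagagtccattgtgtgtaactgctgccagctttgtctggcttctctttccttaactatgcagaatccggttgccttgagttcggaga
The second is Pa-only in both marks and lies beyond the 3′ end of PFKFB3, 94.3 kb from its TSS, at chr10:6339066-6339365.
PFKFB3 downstream: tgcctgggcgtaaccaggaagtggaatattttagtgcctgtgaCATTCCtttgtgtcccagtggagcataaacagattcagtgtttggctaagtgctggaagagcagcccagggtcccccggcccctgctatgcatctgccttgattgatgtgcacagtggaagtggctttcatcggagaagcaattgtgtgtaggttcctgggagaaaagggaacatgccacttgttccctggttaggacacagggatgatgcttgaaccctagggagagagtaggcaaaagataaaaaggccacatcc
The next, at chr2:75090965-75091264 in an intron of HK2, was FR-only for H3K23su and Pa-only for H3K27ac.
HK2 intron: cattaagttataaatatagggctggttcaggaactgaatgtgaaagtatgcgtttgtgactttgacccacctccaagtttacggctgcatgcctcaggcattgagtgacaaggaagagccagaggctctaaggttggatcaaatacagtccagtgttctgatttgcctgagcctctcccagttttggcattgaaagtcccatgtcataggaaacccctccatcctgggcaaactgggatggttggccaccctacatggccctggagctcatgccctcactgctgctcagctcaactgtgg
The last was Pa-only in both marks and is shorter, because the regions of the marks overlapped less. It is at chr17:80261082-80261277 and lies 74.2 kb downstream of the SLC16A3 TSS, where CD7 has the closest coding TSS.
SLC16A3 downstream: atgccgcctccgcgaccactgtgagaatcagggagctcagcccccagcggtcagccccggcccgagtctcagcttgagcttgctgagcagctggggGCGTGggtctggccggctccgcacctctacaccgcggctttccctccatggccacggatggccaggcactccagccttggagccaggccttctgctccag

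None of these stretches held an AP-1, E-box or GC box match. PFKFB3 held 1 TEAD match, PFKP 1 FOX match and SLC16A3 1 GCGTG match. Over all 122500 H3K23su regions, windows of 300 bp around the midpoint held the TEAD letters in 17.2%, the FOX letters in 5.19%, the KLF letters in 11.0% and GCGTG in 24.6%. Of the words of 20 bases in each stretch, between 90.4% and 98.9% occur once in hg19.

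All 10 genes carried both marks at the promoter in both lines. A peak lay within 2 kb of the canonical TSS in all 4 libraries of H3K23su, as for 54.8% of all genes, and in all 4 of H3K27ac, as for 59.2% of all genes, while 33.3% and 26.4% of all genes had no promoter peak in any library. The length of the promoter window that the peaks covered and the rank of the peaks were then compared between the lines. No promoter length passed the test given below, and the ranks were not tested. In unscaled covered promoter length, the HCT15-FR libraries both lay above the HCT15-Pa libraries at 4 genes for H3K23su. This holds for 43.1% of all genes with a promoter peak. Both lay below at 1 gene, against 8.31%. For H3K27ac the counts were 3 above, against 31.4% of all genes, and 0 below, against 12.7%.

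**Figure D1:**
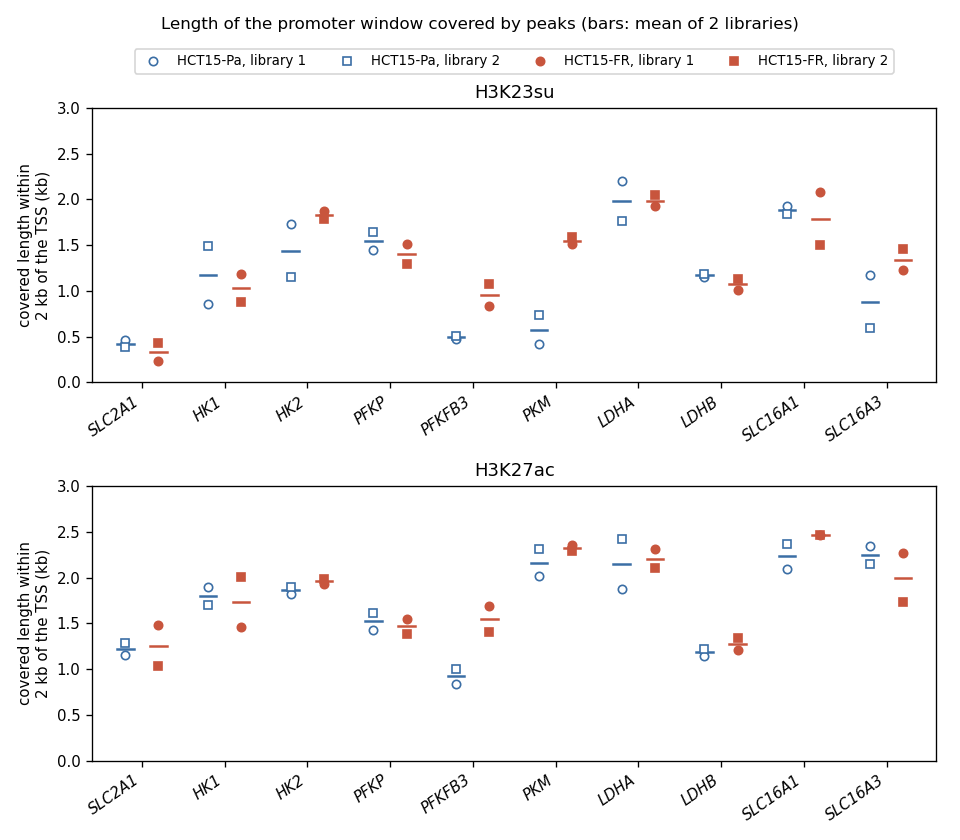
Length of the window within 2 kb of the TSS that was covered by peaks (kb, y axis) for the 10 genes (x axis), H3K23su above and H3K27ac below. Points are single libraries and bars the mean of 2, and PKM H3K23su went from 0.418 and 0.732 kb in HCT15-Pa to 1.51 and 1.59 kb in HCT15-FR libraries.

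The widest gap in H3K23su was at PKM, the gene of pyruvate kinase. H3K23su peaks covered 0.418 and 0.732 kb of its promoter window in the HCT15-Pa libraries and 1.51 and 1.59 kb in the HCT15-FR libraries. H3K27ac covered 2.01 and 2.31 kb in HCT15-Pa cells and 2.36 and 2.29 kb in HCT15-FR cells. Thus the H3K23su libraries of the lines did not overlap and the H3K27ac libraries did. After scaling to the total covered length of each library, the H3K23su promoter length was 1.00 ± 0.25 higher in HCT15-FR cells on the log2 scale (SE; limma across all genes, adjusted p = 0.178), which did not pass the threshold of 0.05. The difference between the marks, H3K27ac minus H3K23su, was -1.13 ± 0.28 (SE; limma with an interaction of line and mark, adjusted p = 0.195) and did not pass either. Part of the H3K23su cover of the PKM promoter in HCT15-FR libraries lay in an FR-only region of 439 bp. That region was centered 1.21 kb upstream of the TSS, inside a shared H3K27ac region. Its middle 300 bases, at chr15:72524591-72524890, are shown from the minus strand in the direction of transcription, with the KLF letters in capitals.
PKM upstream: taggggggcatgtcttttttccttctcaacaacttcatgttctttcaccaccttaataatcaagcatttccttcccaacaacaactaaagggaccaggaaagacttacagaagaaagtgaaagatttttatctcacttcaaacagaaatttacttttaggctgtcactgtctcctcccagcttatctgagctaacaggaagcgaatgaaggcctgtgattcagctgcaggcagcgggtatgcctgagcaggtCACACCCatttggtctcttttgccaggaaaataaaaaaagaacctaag

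PFKFB3 and HK2 were the genes at which the HCT15-FR libraries lay above for both marks, and the gap was wider at PFKFB3. H3K23su covered 0.478 and 0.507 kb in HCT15-Pa and 0.837 and 1.08 kb in HCT15-FR libraries, and H3K27ac 0.838 and 1.01 kb against 1.69 and 1.41 kb. No library of one line reached the other in either mark. The scaled log2 differences were 0.54 ± 0.22 for H3K23su (SE; limma, adjusted p = 0.332) and 0.43 ± 0.14 for H3K27ac (SE; limma, adjusted p = 0.213), and neither passed the test. PFKFB3 has further annotated TSSs 58.0 and 39.1 kb upstream and 18.5 kb downstream of the canonical one, and each had a peak of both marks in all 4 libraries. The strongest lay at the TSS 39.1 kb upstream, where H3K23su ranked at percentiles 85.0 and 98.1 in HCT15-Pa and 86.5 and 90.1 in HCT15-FR libraries. H3K27ac ranked there at 90.2 and 91.5 in HCT15-Pa and at 93.3 and 94.7 in HCT15-FR libraries.

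The hexokinase promoters differed little in length. HK2 H3K23su covered 1.73 and 1.15 kb in HCT15-Pa and 1.88 and 1.78 kb in HCT15-FR libraries. HK2 H3K27ac covered 1.83 and 1.90 kb against 1.93 and 1.99 kb, so that HCT15-FR lay above HCT15-Pa by less than the ratio of the totals, and after scaling the log2 difference was -0.16 ± 0.07 (SE; limma, adjusted p = 0.271). HK1 overlapped between the lines in both marks, with H3K23su at 0.860 and 1.49 kb in HCT15-Pa and 1.19 and 0.883 kb in HCT15-FR libraries. HK1 has 2 groups of annotated TSSs 48.9 and 40.4 kb upstream of the canonical one, and neither had a peak of either mark in any library. An HK1 TSS 19.2 kb downstream of the canonical one had peaks in all libraries. The H3K23su peaks that touched its 2 kb window summed to 739 and 272 bp in HCT15-Pa and to 1770 and 1586 bp in HCT15-FR libraries, and the H3K27ac peaks to 289 and 255 bp against 1489 and 541 bp.

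Of the other genes, SLC16A3 H3K23su covered 1.17 and 0.595 kb in HCT15-Pa and 1.23 and 1.46 kb in HCT15-FR libraries, while its H3K27ac overlapped between the lines. SLC16A1 H3K27ac covered 2.099 and 2.37 kb in HCT15-Pa and 2.46 kb in both HCT15-FR libraries, while its H3K23su overlapped. LDHB was the gene whose H3K23su promoter length lay lower in HCT15-FR cells, at 1.016 and 1.14 kb against 1.16 and 1.19 kb, a difference close to the spread between libraries of a line. Without scaling, SLC2A1, PFKP and LDHA overlapped between the lines in both marks. SLC2A1 had the shortest mean H3K23su cover of the 10, with libraries between 0.235 and 0.463 kb, and LDHA among the longest, between 1.76 and 2.20 kb. After scaling, H3K23su log2 differences were -0.42 at SLC2A1, -0.35 at PFKP, -0.34 at HK1, -0.32 at LDHB, -0.31 at SLC16A1 and -0.22 at LDHA. They were 0.10 at HK2 and 0.35 at SLC16A3, beside those of PKM and PFKFB3 above. The median over the 10 promoters was -0.27 for H3K23su and -0.17 for H3K27ac, beside -0.02 and -0.14 over all genes tested. In the limma fit over all genes, no gene passed the adjusted threshold at the promoter in either mark. An unadjusted p under 0.05 was reached by 1952 of 12094 genes for H3K23su and 2784 of 12910 for H3K27ac.

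**Figure D2:**
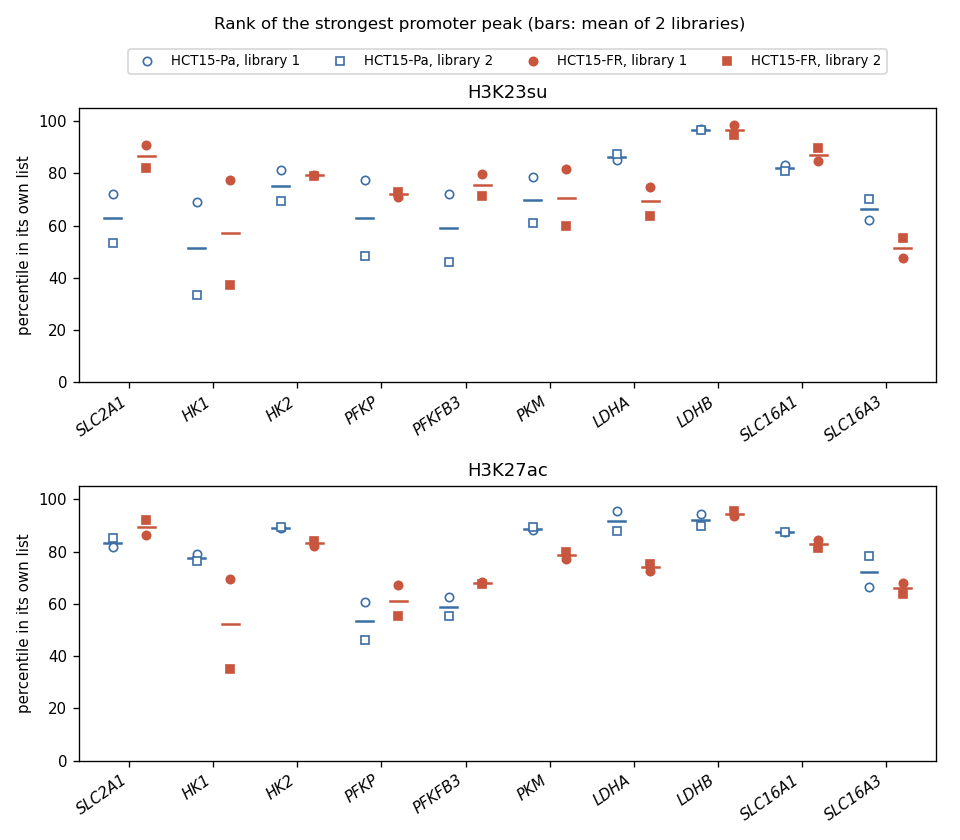
Percentile of the strongest promoter peak within its own peak list (y axis) for the 10 genes (x axis), H3K23su above and H3K27ac below. Points are single libraries and bars the mean of 2, and LDHA lay lower in HCT15-FR cells for both marks while SLC2A1 lay higher.

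The genes were ordered differently by the rank of the strongest promoter peak. LDHA, the subunit that favors lactate, ranked lower in HCT15-FR cells for both marks. Its H3K23su peak stood at percentiles 85.3 and 87.4 in HCT15-Pa and 74.9 and 63.5 in HCT15-FR libraries, and its H3K27ac peak at 95.4 and 87.8 against 72.6 and 75.3. SLC2A1, the glucose transporter, ranked higher for both marks, with H3K23su at 72.1 and 53.4 in HCT15-Pa and 90.7 and 82.2 in HCT15-FR libraries, and H3K27ac at 81.7 and 85.1 against 86.4 and 92.0. Its higher rank came with no longer cover. LDHB, the subunit that favors pyruvate, had the highest ranking H3K23su promoter peak of the 10 genes in every library, between 94.7 and 98.4, with H3K27ac between 89.6 and 95.4. The lines overlapped at LDHB in both marks.

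The lactate transporters did not move alike. SLC16A1 H3K23su ranked at 83.1 and 80.8 in HCT15-Pa and at 84.6 and 89.6 in HCT15-FR libraries, while H3K27ac went the other way, from 87.5 and 87.6 to 84.4 and 81.2. SLC16A3 H3K23su ranked lower in HCT15-FR cells, at 62.2 and 70.3 against 47.7 and 55.3, although it covered a longer stretch, and its H3K27ac overlapped. For H3K27ac alone, HK1 stood at 79.1 and 76.2 against 69.4 and 35.2, HK2 at 89.1 and 89.2 against 82.2 and 84.0, and PKM at 88.2 and 89.3 against 77.1 and 79.8, all lower in HCT15-FR cells. PFKFB3 H3K27ac ranked higher, from 62.5 and 55.2 to 68.2 and 67.7. In all, H3K23su ranks lay above in 2 genes and below in 2, against 28.2% and 15.8% of all genes, and H3K27ac ranks above in 2 and below in 5, against 20.9% and 26.8%. No test was run on the ranks, since the smallest p that a two-sided exact permutation test of 2 libraries against 2 allows is 0.3333.

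**Figure D3:**
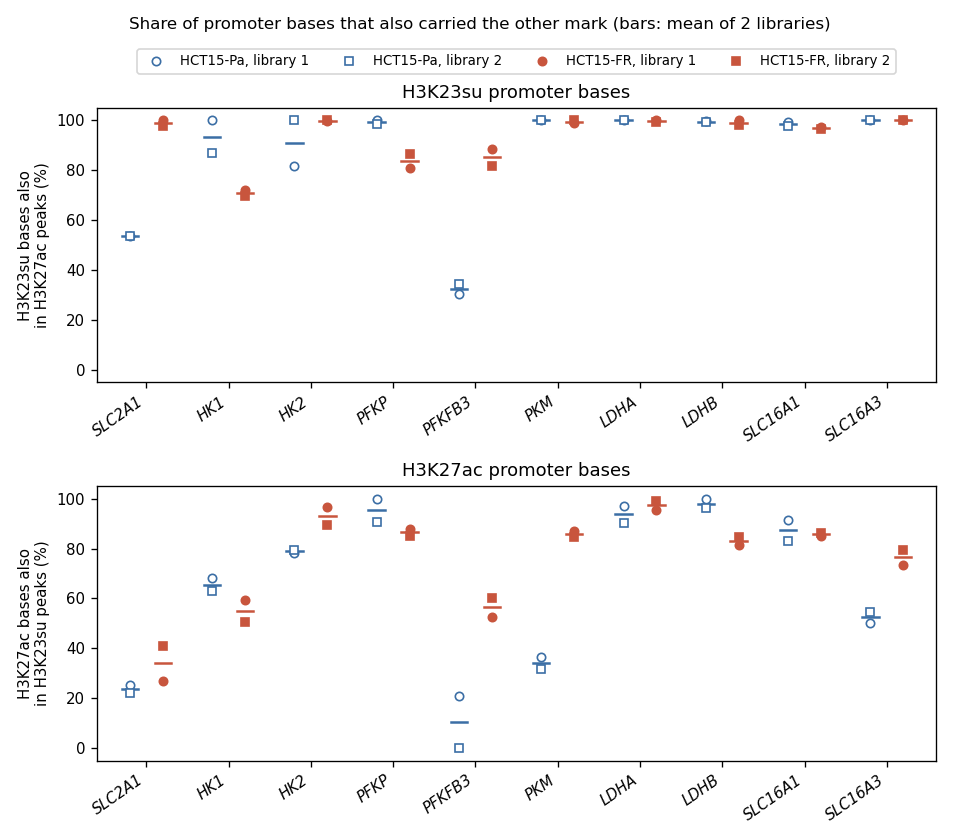
Share of the promoter bases of one mark that also lay in peaks of the other mark in either library of the same line (percent, y axis), for the 10 genes (x axis). Points are single libraries and bars the mean of 2, and the share of PKM H3K27ac bases with H3K23su went from 36.4 and 31.7% in HCT15-Pa to 87.1 and 84.5% in HCT15-FR libraries.

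Where the marks lay on the same bases was compared next, by asking which promoter bases of one mark also lay in a peak of the other mark in either library of the same line. At PKM, 36.4 and 31.7% of the H3K27ac bases also carried H3K23su in HCT15-Pa libraries and 87.1 and 84.5% in HCT15-FR libraries. Of the PKM H3K23su bases, 100 and 100% lay in H3K27ac peaks in HCT15-Pa and 99.0 and 100% in HCT15-FR libraries. The PKM H3K27ac share thus restates the longer H3K23su cover given above and is not a separate observation. At PFKFB3 the shares of H3K27ac bases with H3K23su were 20.9 and 0% in HCT15-Pa and 52.5 and 60.4% in HCT15-FR libraries. The H3K27ac peaks of 1 HCT15-Pa library did not touch an H3K23su peak there. In the other direction, 30.5 and 34.5% of the PFKFB3 H3K23su bases carried H3K27ac in HCT15-Pa cells against 88.6 and 81.9% in HCT15-FR cells. SLC2A1 H3K23su likewise went from 53.6 and 53.7% to 100 and 97.9%. SLC16A3 H3K27ac bases carried H3K23su at 50.1 and 54.7% in HCT15-Pa and at 73.6 and 79.5% in HCT15-FR libraries. HK1, LDHB and PFKP went the other way. Of HK1 H3K27ac bases, 68.3 and 62.9% lay in H3K23su peaks in HCT15-Pa and 59.4 and 50.7% in HCT15-FR libraries. LDHB H3K27ac went from 100 and 96.1% to 81.6 and 84.8%, and PFKP from 100 and 90.8% to 88.0 and 85.0%. H3K23su bases with H3K27ac went from 100 and 87.0% to 72.0 and 69.8% at HK1. At PFKP they went from 100 and 98.5% to 81.0 and 86.5%, and at SLC16A1 from 99.4 and 97.9% to 97.5 and 96.4%.

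By this measure the H3K27ac promoter bases had a higher share with H3K23su in both HCT15-FR libraries at 5 genes, against 40.3% of all genes, and a lower share at 3, against 17.0%. H3K23su promoter bases had a higher share with H3K27ac at 2 genes, against 17.7%, and a lower share at 3, against 20.0%. The longer total cover of the HCT15-FR lists, which holds for either mark, enters both of these shares, and its part in the values of PKM, PFKFB3 and SLC2A1 was not tested.

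Over the whole loci, the HCT15-FR libraries both lay above the HCT15-Pa libraries in unscaled covered length at 6 of the 10 genes for H3K23su, against 52.0% of all genes, and at 6 for H3K27ac, against 50.5%. None of the 10 lay below, against 13.1% and 13.6% of all genes. HK2 had the largest scaled H3K23su difference, with 5.31 and 3.57 kb in HCT15-Pa and 8.22 and 7.77 kb in HCT15-FR libraries. After scaling to the totals its log2 difference was 0.57 ± 0.17 (SE; limma across all genes, adjusted p = 0.0686), short of the threshold. It was called without scaling (limma, adjusted p = 0.0125) and with the replicate number as a block (limma, adjusted p = 0.0184), and was 0.82 without HCT15-Pa library 1 and 0.32 without HCT15-Pa library 2, with no call in either. HK2 H3K27ac covered 7.46 and 6.15 kb in HCT15-Pa and 8.64 and 7.53 kb in HCT15-FR libraries, with a scaled log2 difference of 0.00 ± 0.13 (SE; limma, adjusted p = 0.985).

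**Figure D4:**
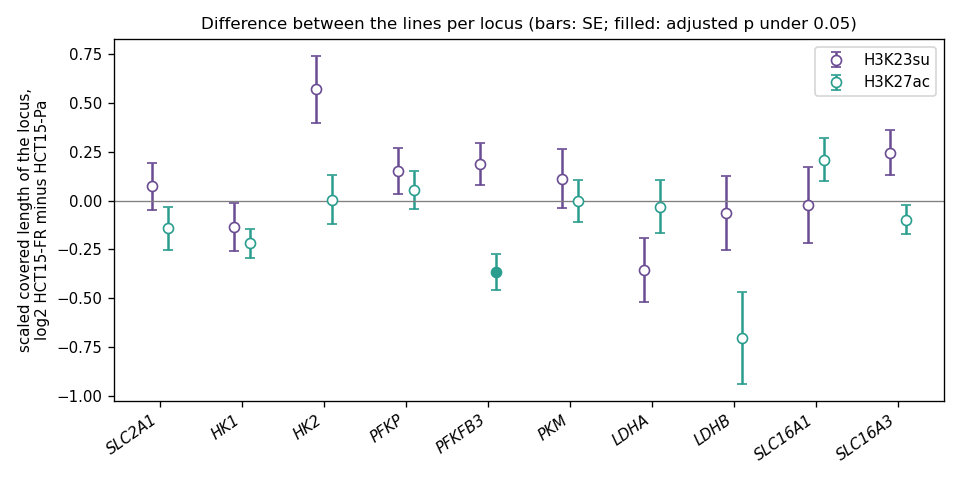
Scaled difference between the lines in the length of each locus covered by peaks (log2 HCT15-FR minus HCT15-Pa, y axis) for the 10 genes (x axis), with the SE of the fit as bars. The H3K27ac value of PFKFB3, -0.37, is the 1 filled point, for an adjusted p under 0.05.

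PFKFB3 was the 1 gene of the 10 that passed the locus test, for H3K27ac and toward less cover in HCT15-FR cells. Its H3K27ac covered 12.4 and 13.3 kb in HCT15-Pa and 11.0 and 12.4 kb in HCT15-FR libraries, so that the unscaled libraries overlapped, beside HCT15-FR lists that covered more in total. The scaled log2 difference was -0.37 ± 0.09 (SE; limma, adjusted p = 0.0226), in a fit that called 7.31% of all genes lower and 7.61% higher. It was lost without scaling, where the difference was -0.13 (limma, adjusted p = 0.315), with flanks of 10 kb, where it was -0.10 (limma, adjusted p = 0.606), and when any single library was left out, with adjusted p between 0.0549 and 0.225. PFKFB3 H3K23su covered 8.60 and 7.77 kb in HCT15-Pa and 11.6 and 10.8 kb in HCT15-FR libraries, a scaled log2 difference of 0.19 ± 0.11 (SE; limma, adjusted p = 0.303). The difference between the marks was -0.55 ± 0.14 on the log2 scale (SE; limma with an interaction of line and mark, adjusted p = 0.137), and in that fit 0 of 17287 loci passed while 2231 had an unadjusted p under 0.05.

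LDHB H3K27ac covered 2.96 and 4.87 kb in HCT15-Pa and 2.14 and 3.05 kb in HCT15-FR libraries, and the scaled log2 difference of -0.71 ± 0.24 (SE; limma, adjusted p = 0.0695) missed the threshold. It passed with the replicate number as a block (limma, adjusted p = 0.0157) and without HCT15-Pa library 1, where it was -1.04 (limma, adjusted p = 0.0451), while it was -0.38 without HCT15-Pa library 2 (limma, adjusted p = 0.369). HK1 H3K27ac missed it too, at -0.22 ± 0.07 (SE; limma, adjusted p = 0.0751), with 15.3 and 14.5 kb in HCT15-Pa and 14.7 and 15.5 kb in HCT15-FR libraries, and passed with flanks of 10 kb, at -0.56 (limma, adjusted p = 0.0441). For H3K23su none of the 10 loci passed, where 5.56% of all genes were called higher and 4.23% lower. With flanks of 10 kb PKM H3K23su was called higher, at 0.79 (limma, adjusted p = 0.0462), against 0.11 with flanks of 50 kb (limma, adjusted p = 0.68), and without scaling HK2, PFKFB3, PFKP and SLC16A3 were. Higher loci made up 56.8% of the H3K23su and 51.0% of the H3K27ac calls, and 88.7% and 85.5% without scaling. The remaining scaled H3K23su differences ran from -0.36 at LDHA to 0.25 at SLC16A3, and the remaining H3K27ac differences from -0.14 at SLC2A1 to 0.21 at SLC16A1. The median over the 10 loci was 0.09 for H3K23su and -0.06 for H3K27ac, beside 0.03 and -0.04 over all genes tested. Neighboring genes share bases with several of these loci, among them HKDC1 with HK1 and LDHC with LDHA.

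The 10 loci held 225 H3K23su regions, of which 67 were shared, 17 FR-only and 11 Pa-only, and 206 H3K27ac regions, of which 78 were shared, 15 FR-only and 16 Pa-only. FR-only regions were thus 7.56% and Pa-only regions 4.89% of the H3K23su regions, beside 7.95% and 5.01% over all regions of that mark, and 7.28% and 7.77% of the H3K27ac regions, beside 9.08% and 4.53%. An FR-only H3K23su region lay in 6 of the 10 loci, against 48.7% of all genes, and a Pa-only one in 7, against 35.6%. For H3K27ac both kinds lay in 8 loci, against 53.6% and 33.8% of all genes. All genes here include those with no peak in the locus. Per 100 kb, the 10 loci held 1.02 FR-only and 0.66 Pa-only H3K23su regions, beside 0.53 and 0.30 over the loci of all genes. For H3K27ac these were 0.90 and 0.96, beside 0.61 and 0.28. Distances to coding TSSs were taken from the midpoint of a region to the canonical TSS of each gene, so other annotated TSSs can be closer. No share over all regions was computed for them. Most FR-only and Pa-only regions lay over 2 kb from every canonical TSS. For H3K23su these were 14 of the 17 FR-only regions and 10 of the 11 that were Pa-only, and for H3K27ac all 15 and all 16. The closest coding TSS was that of one of the 10 genes for 12 FR-only and 6 Pa-only regions of H3K23su and for 9 FR-only and 8 Pa-only H3K27ac regions.

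**Figure D5:**
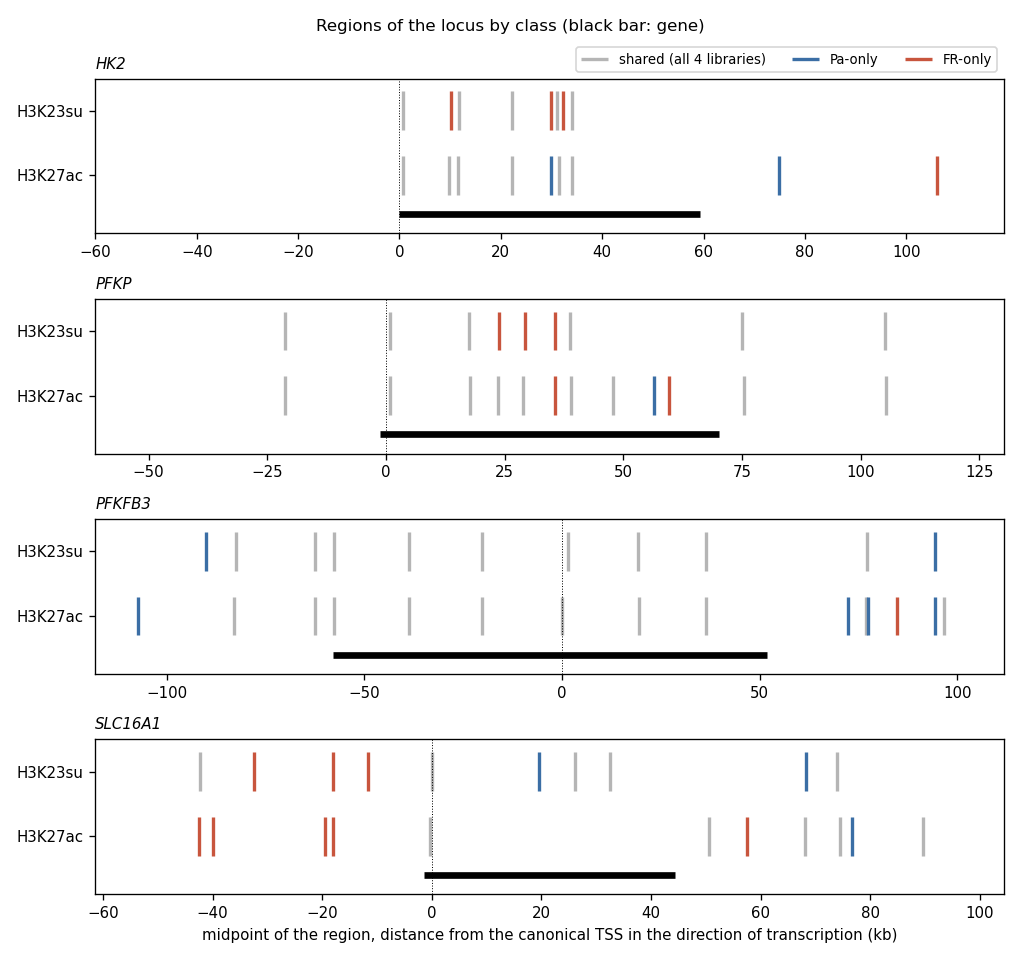
Midpoints of shared (grey), Pa-only (blue) and FR-only (red) regions by distance from the canonical TSS in the direction of transcription (kb, x axis), for HK2, PFKP, PFKFB3 and SLC16A1, with the gene as a black bar. FR-only H3K23su regions lie inside HK2 and PFKP and upstream of SLC16A1, and Pa-only H3K27ac regions lie downstream of PFKFB3.

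HK2 and PFKP each had 3 FR-only H3K23su regions, all in introns, and no Pa-only one. Those of HK2 lay 10.2, 29.9 and 32.3 kb from its TSS, the first and last within shared H3K27ac regions. The middle one, chr2:75090922-75091306, at percentiles 79.7 and 42.7 in the HCT15-FR lists, lay within a Pa-only H3K27ac region at percentiles 40.6 and 33.3 in the HCT15-Pa lists, so the marks were of opposite class there. Those of PFKP lay 23.8, 29.3 and 35.7 kb from its TSS. The third, chr10:3145021-3145853, was FR-only for H3K27ac too, at percentiles 86.2 and 86.2, while its weaker H3K23su peak stood at 32.9. That region lay within 2 kb of annotated PFKP TSSs 37.2 kb downstream of the canonical one. H3K23su peaks touching the windows of those TSSs summed to 281 and 407 bp in HCT15-Pa and to 1040 and 959 bp in HCT15-FR libraries. The HCT15-FR sums include the peaks of that FR-only region, so they are not a separate observation.

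SLC16A1 had 3 FR-only H3K23su regions, 11.6, 18.0 and 32.4 kb upstream, and 4 of its 5 FR-only H3K27ac regions were upstream as well, between 18.1 and 42.5 kb. The pair of regions 18.0 kb upstream overlapped between the marks, with percentiles 75.6 and 71.3 for H3K23su and 59.8 and 42.3 for H3K27ac. Of the words of 20 bases common to both regions there, 9.61% occur once in hg19. The authors kept uniquely mapped reads, and the part of repeated bases in these peaks was not tested. PFKFB3 was the reverse, with Pa-only H3K27ac regions 72.4, 77.5 and 94.4 kb downstream of its TSS and 1 more 107 kb upstream, against 1 FR-only region. Of those, the region 94.4 kb downstream was Pa-only for H3K23su as well, at percentiles 50.2 and 64.0, and the one 72.4 kb downstream ranked highest for H3K27ac, at 65.9 and 86.7.

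Pa-only regions of both marks also overlapped near SLC16A3, with H3K23su percentiles 20.1 and 80.3, and near LDHA, with 62.3 and 11.5, so that 1 peak of each pair was weak. The LDHA pair lay 38.4 kb upstream of the TSS, and 1.03% of its words of 20 bases occur once in hg19. In all, 2 pairs of regions were FR-only and 3 Pa-only in both marks. At HK1, the strongest Pa-only H3K27ac region lay 86.4 kb upstream inside HKDC1, at percentiles 68.0 and 95.8, and the strongest FR-only H3K23su region 131 kb downstream near TSPAN15, at 73.8 and 58.7. SLC2A1 had no FR-only H3K23su region and 2 FR-only H3K27ac regions, 30.7 kb downstream of its TSS at percentiles 43.4 and 57.5 and 13.2 kb upstream at 55.6 and 65.5.

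Other regions of these classes lay inside the genes or beyond their 3′ ends. Here the strongest region of a gene and class is the one whose weaker peak ranked highest. The strongest FR-only H3K23su region of PFKP was the one 29.3 kb from its TSS, at percentiles 65.5 and 51.5, and that of HK2 the one at 10.2 kb, at 54.7 and 49.2. The strongest FR-only H3K27ac region of HK2 lay 106 kb downstream, nearest to POLE4, at 59.3 and 69.6, and that of HK1 120 kb downstream, nearest to TSPAN15, at 54.6 and 51.7. Inside HK1, a Pa-only H3K23su region 48.1 kb from the TSS had percentiles 45.6 and 53.7, and no H3K27ac list had a peak there. SLC16A3 had an FR-only H3K23su region in its body, 18.0 kb from the TSS, at percentiles 65.7 and 14.6. SLC16A1 also had a Pa-only H3K23su region 68.3 kb downstream of its TSS, at 47.5 and 61.4, over a shared H3K27ac region.

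Some of these regions stood low in at least 1 list. In the SLC2A1 promoter window, 1.86 kb upstream of the TSS, lay a Pa-only H3K23su region at percentiles 5.24 and 53.4, and a Pa-only H3K27ac region 34.8 kb upstream had 21.2 and 30.7. The PKM promoter region shown above stood at 19.6 and 42.1, and the Pa-only H3K23su and FR-only H3K27ac regions of PKM, both near GRAMD2A, at 52.5 and 9.98 and at 0.716 and 2.06. The FR-only H3K27ac region of LDHA, inside LDHAL6A, stood at 13.5 and 60.5, and that of PFKFB3, 84.6 kb downstream of its TSS, at 13.2 and 31.9. The Pa-only H3K27ac region inside PFKP had 5.65 and 6.52, and that of SLC16A1 5.46 and 17.2. LDHB was the gene with neither kind of region in either mark.

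The other genes of glucose uptake, glycolysis and the fate of pyruvate and lactate were 36, from SLC2A2 to PDK4. Of these, 23 had an H3K23su promoter peak in all 4 libraries and 9 in none, beside 54.8% and 33.3% of all genes, and 27 had an H3K27ac promoter peak in all 4 and 7 in none, beside 59.2% and 26.4%. At the locus, 34 of the 36 had enough cover to be tested, and for H3K23su 2 of these were called higher in HCT15-FR cells and none lower, beside 5.56% and 4.23% of all genes. They were ENO1, an enolase, at 5.01 and 4.76 kb in HCT15-Pa and 8.28 and 8.14 kb in HCT15-FR libraries (scaled log2 difference 0.46 ± 0.13, SE; limma, adjusted p = 0.0496), and TPI1, triose phosphate isomerase, at 4.83 and 5.22 kb against 8.11 and 9.23 kb (0.49 ± 0.13, SE; limma, adjusted p = 0.0484). Both calls were lost under most alternatives, including every one that left out a library.

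For H3K27ac 4 of the 34 tested were called higher and 1 lower, beside 7.61% and 7.31% of all genes. ENO1 covered 4.50 and 4.26 kb in HCT15-Pa and 8.18 and 7.77 kb in HCT15-FR libraries, a scaled log2 difference of 0.57 ± 0.12 (SE; limma, adjusted p = 0.011). BSG, the chaperone of the lactate transporters, covered 8.86 and 7.95 kb against 13.7 and 13.4 kb (0.43 ± 0.09, SE; limma, adjusted p = 0.0112). PDK4, a kinase that holds pyruvate back from the mitochondrial dehydrogenase, covered 1.90 and 1.69 kb against 3.59 and 3.55 kb (0.62 ± 0.18, SE; limma, adjusted p = 0.042), but with flanks of 10 kb its difference was -0.13 (limma, adjusted p = 0.732). PGK1, phosphoglycerate kinase, covered 6.15 and 5.90 kb against 9.75 and 8.98 kb (0.36 ± 0.11, SE; limma, adjusted p = 0.0464). HKDC1, a hexokinase homolog next to HK1, covered 5.16 and 5.06 kb against 4.15 and 3.67 kb (-0.57 ± 0.14, SE; limma, adjusted p = 0.0238). The 4 libraries of each of these genes were apart by line, and each of the 5 calls was lost without either HCT15-FR library and without HCT15-Pa library 2. Those of HKDC1, PDK4 and PGK1 were lost without HCT15-Pa library 1 as well, and those of ENO1, BSG, PDK4 and PGK1 with flanks of 10 kb, where ENO1 was at 0.11 (limma, adjusted p = 0.695). BSG was at 0.09 with the stronger 50% of each list (limma, adjusted p = 0.613).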

How the data were processed

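The authors aligned CUT&Tag reads to hg19 with Bowtie2, filtered with SAMtools for properly paired, unique alignments without duplicates, and ran MACS2 on each library, with its broad option for H3K27ac. The deposited score of each peak is the −log10 P value that MACS2 gave in the authors' run. Peaks were placed on GENCODE release 44 genes of GRCh37, with the TSS of the canonical transcript, and 19811 of 20090 genes carried that tag. The covered length of a locus or promoter was divided by the covered total of its library and compared as log2 (length + 500 bp, or + 200 bp at promoters) with limma 3.58.1 in R 4.3.3, over all genes with a mean of at least 500 bp, or 200 bp at promoters, with Benjamini-Hochberg adjustment at 0.05. A fold change on this scale understates that of short lengths, and overlapping loci share peaks. A region needed 1 bp of a peak to count as present. The fits, the covered lengths and the region classes were tested on simulated data. Python 3.11.15 with pandas 2.3.3 and pysam 0.24.0 did the rest.

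The 10 genes, the other 36 genes, the markers and the motifs were chosen with earlier results of these data known. All 10 genes were named, and of the other 36 those called by limma. Regions were named where both marks were FR-only or Pa-only, and otherwise the strongest ones per gene and class, with others named beside them after their values were seen. The interaction fit, the shares of promoter bases with both marks, the further TSSs, the 20-base words and the PKM sequence were added after the data were seen. The bases just upstream of the 3 promoters with such a region overlap exons of other transcripts and are not printed, and the SLC16A1 and LDHA sequences are not reported here. The marker PECAM1 had no match in the annotation table, so 9 of the 10 markers of other cells were used. The study's RNA-seq and ATAC-seq were not analysed here. The alternatives were a list cut to its stronger 50%, a common minimum score, equal list lengths, other overlaps, merging, windows, TSSs, flanks, scalings, pseudocounts and filters, each library left out, and the replicate number as a block.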

Additional observations from a re-analysis of the deposited data

Results flagged for a closer look

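At 2 genes the marks lay in opposite directions between the lines without overlap of single libraries, in the rank of a promoter peak or in the class of a region. At SLC16A1, the strongest promoter peak ranked 5.13 percentiles higher on average in HCT15-FR than in HCT15-Pa libraries for H3K23su and -4.73 percentiles, that is lower, for H3K27ac, and no library of one line reached those of the other in either mark. The opposite directions hold for the ranks only. Unscaled, the SLC16A1 H3K27ac promoter length was 2.099 and 2.366 kb in HCT15-Pa and 2.464 and 2.465 kb in HCT15-FR libraries, and that of H3K23su overlapped. In the HK2 intron 29.9 kb from the TSS, an FR-only H3K23su region lay inside a Pa-only H3K27ac region. The weakest peak of that pair stood at percentile 33.3. Neither difference between the marks was tested as such, and no share of opposite directions over all genes or regions was computed. For a single mark, ranks lay above without overlap in 28.2% of all genes for H3K23su and below in 26.8% for H3K27ac. The covered length of the SLC16A1 promoter, where the difference between the marks was tested, gave a log2 difference, H3K27ac minus H3K23su, of 0.22 ± 0.20 (SE; limma with an interaction of line and mark, adjusted p = 0.755), and that of the HK2 locus -0.57 ± 0.22 (SE; adjusted p = 0.301 in the limma fit of the loci). With 2 libraries in each group, no single library could be examined for standing apart.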

How the results depend on the processing

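All 10 genes kept a promoter peak in every library of both marks with any annotated TSS, a common minimum score and each library left out, while a window of 1 kb kept 9 for H3K23su and 10 for H3K27ac and the stronger 50% of each list 6 and 8. The 17 FR-only and 11 Pa-only H3K23su and 15 FR-only and 16 Pa-only H3K27ac regions became 8, 6, 9 and 8 with the stronger 50% of each list, and of the regions of that kind in both marks, 2 FR-only and 3 Pa-only, 1 and 0 were left. Merging peaks within 500 bp left 1 Pa-only pair. With flanks of 10 kb, 4 Pa-only H3K23su, 3 FR-only and 5 Pa-only H3K27ac regions were left, and with the closest coding TSS required 6, 9 and 8. Leaving out a library makes the classes easier to meet, and gave 20 to 46 and 14 to 35 regions for H3K23su, 20 to 34 and 20 to 33 for H3K27ac, and 3 to 6 and 2 to 9 for both marks.

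The number of loci called by limma, 966 higher and 735 lower for H3K23su and 1373 and 1319 for H3K27ac, changed with several choices. Without scaling, the H3K23su fit called 4180 higher, which is 88.7% of its calls against 56.8% with scaling, and the H3K27ac fit 4212 higher and 715 lower, 85.5% against 51.0%. The median log2 difference over all genes was then 0.25 and 0.19, and 4 and 2 of the 10 loci were called higher. With the stronger 50% of each list the counts were 30 and 17 for H3K23su and 887 and 819 for H3K27ac, and with flanks of 10 kb 474 and 369, and 693 and 531. Leaving out a library gave 49 to 199 and 81 to 107 for H3K23su and 142 to 835 and 221 to 517 for H3K27ac, in fits where a lone library is assumed to vary like the others. Promoter fits, with 0 calls, gave 155 higher and 92 lower for H3K23su without scaling, 241 and 192 with a pseudocount of 50 bp, 0 and up to 163 with a library left out, and for H3K27ac 0 and up to 179.

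The replicate numbers left no visible pairing in covered length. Deviations of same-numbered libraries correlated at 0.0117 for H3K23su and 0.00302 for H3K27ac. These correlations cannot tell whether the libraries were prepared in pairs. With the replicate number as a block the fit called 1457 higher and 1041 lower for H3K23su and 1510 and 1450 for H3K27ac, including HK2 H3K23su (0.57; limma, adjusted p = 0.0184) and LDHB H3K27ac (-0.71; limma, adjusted p = 0.0157), while PGK1 was lost (limma, adjusted p = 0.0507). Region classes within replicate numbers are the same by construction.

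Some differences turned sign. Without scaling H3K23su became 0.11 at HK1, 0.16 at LDHB and 0.22 at SLC16A1, and H3K27ac 0.020 at HK1, 0.19 at LDHA, 0.23 at PKM, 0.14 at SLC16A3 and 0.093 at SLC2A1, while scaling to the median gave 0.0078 at PKM. With the stronger 50% of each list H3K23su was 0.33 at HK1, -0.25 at PKM and 0.076 at SLC16A1, and H3K27ac -0.62 at SLC16A1, from 0.21, which then was called lower (limma, adjusted p = 0.0306), and 0.074 at SLC2A1. With flanks of 10 kb H3K23su was 0.0055 at LDHB and -0.042 at SLC2A1, and H3K27ac -0.059 at HK2, -0.13 at PDK4, from a called 0.62, 0.13 at PKM, -0.040 at SLC16A1 and 0.22 at SLC2A1. Equal list lengths gave 0.0027 for LDHA H3K27ac. With 1 library left out, H3K23su ran from -0.28 to 0.013 at HK1, -0.28 to 0.15 at LDHB, -0.038 to 0.26 at PKM and -0.35 to 0.30 at SLC16A1, and H3K27ac from -0.11 to 0.12 at HK2, -0.12 to 0.063 at LDHA, -0.031 to 0.14 at PFKP and -0.080 to 0.073 at PKM. The cause of these changes was not tested. The lists hold no read counts, so a change in signal under a peak of unchanged width is not visible in them.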
